A study of Mus musculus with 8 samples.

Results

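Serotonin receptor transcripts were examined in hippocampal RNA of BTBR and B6 mice. The receptors were Htr1a, Htr1b, Htr2a, Htr2c, Htr3a, Htr4, Htr5a, Htr5b, Htr6 and Htr7, and every probe that the array files name for one of these 10 genes was taken, whatever its value. This gave 13 of the 41174 probes of the array, for 10 of its 27373 distinct gene names. Htr2c had 3 probes, Htr4 had 2, and the other 8 genes had 1 probe each.

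The BTBR group held 4 mice of the inbred strain BTBR T+ Itpr3tf/J, used as a model of autism, and the control group held 4 wild type C57BL/6J (B6) mice. All were labeled male and 5 months old, received no drug, and gave RNA of whole hippocampus, hybridized with Cy3 label to single-color Agilent arrays, 1 mouse per array. For the BTBR mice the labels also name C57BL/6J as strain background, whereas their title, source and genotype name BTBR. The strains differ over the whole genome, so that a difference between them cannot be assigned to a single locus. The arrays were on 2 slides, with replicates 1 and 2 of both strains on slide 1 and replicates 3 and 4 of both on slide 2.

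Serotonin reaches the hippocampus in axons of raphe neurons and acts there through receptors that differ in how they signal. Htr1 and Htr5 receptors couple to inhibitory Gi/o proteins, Htr2 receptors to Gq and phospholipase C, and Htr4, Htr6 and Htr7 to Gs and cyclic AMP, whereas Htr3a forms an ion channel. In rodent hippocampus Htr1a is known from pyramidal and granule neurons, Htr3a from a class of interneurons, and Htr5b from CA1, while Htr2c is also abundant in the choroid plexus, which lies next to the hippocampus.

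No receptor probe was called between the strains, and the 4 arrays of one strain did not lie wholly above or below those of the other for any of them. The receptor probes above background on all arrays still varied from mouse to mouse, above all within BTBR. Htr1a and Htr3a were low on the same 2 BTBR arrays, Htr5b was low on one of these, and Htr2c was low on another BTBR array. Levels are normalized log2 intensities, and differences are BTBR minus B6 on that scale. A probe was called at a limma p under 0.05 after Benjamini-Hochberg adjustment over all probes tested, and a probe entered the test when it was well above background on at least 75% of the arrays of a strain.

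The probe sequences show which stretch of each receptor transcript was read. All are 60 bases long and are placed on mm9, as the array files give them. The first 30 bases, written 5′ to 3′, are shown for the probes of the 5 receptors that were above background on every array and for the second Htr2c probe:
Htr1a: agagggcatcaaatggttttgcgttatatc
Htr3a: gcattgtcttccctatcatggctttaaagc
Htr5b: ttttaggtattggtgagcatttgttagacc
Htr7: aagtaatgcagaacagggggaaacaacgaa
Htr2c, probe A_52_P487454: ccgtatcgatgtaaggcagagaaactgata
Htr2c, probe A_51_P370810: ctgctcattcacacacgtaaactcagtaag

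The Htr1a probe A_52_P612368 lies at chr13:106237236-106237295 on the plus strand and holds a stop codon in every forward frame. The same is true of the Htr2c probe A_52_P487454 at chrX:143631138-143631197. The other Htr2c probe shown, A_51_P370810, is 5′ of it on the same strand, at chrX:143629642-143629702. The Htr3a probe A_51_P175988 is at chr9:48707582-48707641, the Htr5b probe A_51_P322115 at chr1:123406629-123406688 and the Htr7 probe A_51_P101065 at chr19:36034764-36034823, all on the minus strand. The Htr2a probe A_51_P395193 is placed from 75044950 to 75105415 of chromosome 14, a span far longer than the probe, so that it bridges spliced exons and reads spliced RNA. It is shown whole as the one tested receptor probe placed over such a span:
Htr2a: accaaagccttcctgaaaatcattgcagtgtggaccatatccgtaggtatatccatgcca

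Not every receptor probe gave a usable signal. Of the 13, all 8 arrays read 5 probes well above background and none read 3, and no receptor probe was saturated. The test covered 10 probes of 9 genes. The share of all probes well above background ranged from 56.8% to 71.9% on the B6 arrays and from 61.9% to 71.5% on the BTBR arrays, lowest on B6 replicate 1 and on BTBR replicate 3. On these arrays 5 and 7 receptor probes were above background, and on the other 6 arrays 9 or 10 were. The labeled tissue was checked against 6 markers of hippocampal principal neurons, all of which were above background on all 8 arrays. BTBR replicates 1 and 2 stood apart in these markers, and the main results that rest on them are also given without them. In bulk tissue, fewer cells of a type and less RNA per cell cannot be told apart.

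**Figure D1:**
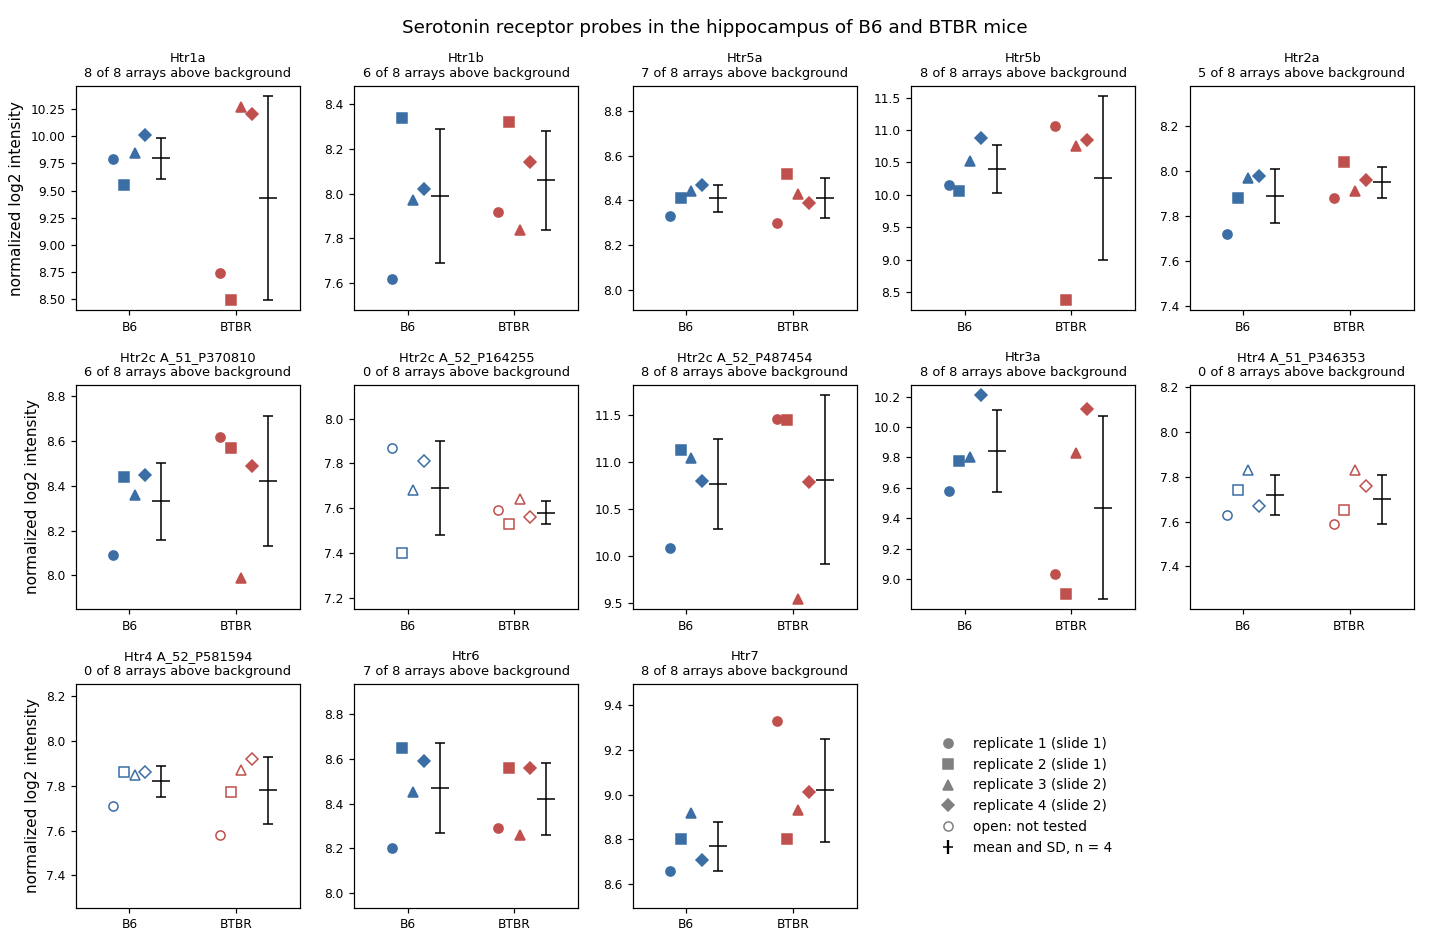
Normalized log2 intensity of the 13 serotonin receptor probes (vertical axes, each with its own range) on the 4 B6 (blue) and 4 BTBR (red) arrays, with replicate shown by symbol and mean and SD in black. Htr1a and Htr3a have their 2 lowest values on BTBR replicates 1 and 2, Htr5b has 1 low array in BTBR, and open symbols mark probes that were not tested.

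Limma called 0 of the 10 receptor probes tested, where 7.61% of all 27981 probes tested were called, 3.31% as higher and 4.30% as lower in BTBR. The number of receptor probes with an unadjusted p under 0.05 was 0 as well, against 18.5% of all probes. The rank product named in the methods, at a share of false positives of 0.05 or less, called 0 of them and 3.93% of all probes. The arrays of the strains failed to overlap for 0 receptor probes and for 14.2% of all probes. Of the receptor probes, 5 had the higher mean in BTBR and 5 in B6. The adjusted p of limma ranged from 0.305 to 0.98. The median absolute difference was 0.08 over the receptor probes and 0.10 over all probes tested, and the largest among the receptors, 0.37, was exceeded by 10.8% of all probes.

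These counts do not show that the receptors were equal. The 95% interval reached past a 2-fold change for 3 probes, those of Htr1a, Htr5b and the brighter probe of Htr2c. With 4 arrays per strain the smallest p that an exact permutation test can give is 0.0286.

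**Figure D2:**
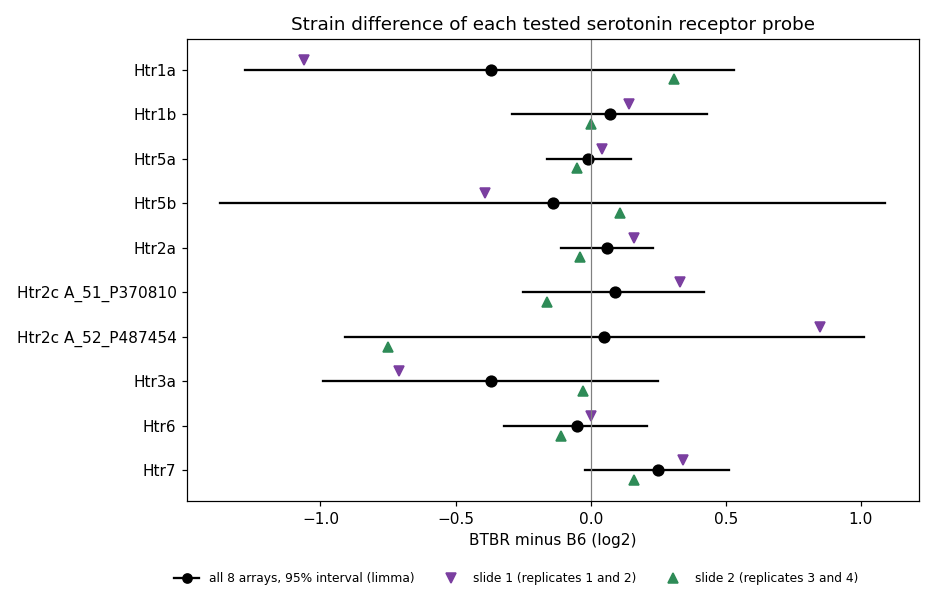
Difference between BTBR and B6 (horizontal axis, log2) of the 10 tested receptor probes. Black circles and lines give the limma estimate from 8 arrays with its 95% interval, and triangles give the difference within slide 1 and within slide 2. All intervals include 0, and the triangles of Htr1a and of the brighter Htr2c probe are on opposite sides of 0.

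Htr1a, the inhibitory autoreceptor of raphe neurons and a main postsynaptic receptor of the hippocampus, was at 9.79, 9.55, 9.85 and 10.01 on the 4 B6 arrays and at 8.74, 8.49, 10.27 and 10.21 on the 4 BTBR arrays. The BTBR arrays fell on both sides of B6, with replicates 1 and 2 below all B6 arrays and replicates 3 and 4 above all of them. The means were 9.80 ± 0.19 in B6 and 9.43 ± 0.94 in BTBR (SD, n = 4 each). The difference of -0.37 (SE 0.40) was smaller than the spread of the BTBR arrays. Its adjusted p was 0.698 in limma, its exact permutation p was 0.457 (two-sided), and its 95% interval ran from 0.412-fold to 1.45-fold.

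Within slide 1 the Htr1a difference was -1.06 and within slide 2 it was 0.31. A limma test of the change between slides gave an unadjusted p of 1.2e-04, which was 0.33 after adjustment over all probes, and 0 probes of the array passed that test (2782 at an unadjusted p under 0.05). The SD of Htr1a in BTBR was 4.98 times that in B6 and larger than the BTBR SD of 99.2% of all probes tested. BTBR was the more variable strain at large, with 66.6% of all probes having the larger SD in BTBR, as did 7 of the 10 receptor probes tested. The differences within the slides had opposite signs for 7 of these 10 probes.

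Markers of hippocampal principal neurons were low on the same arrays as Htr1a. On BTBR replicate 1, 4 of the 6 markers were below every B6 array, and on BTBR replicate 2, 5 of 6 were. Prox1, a marker of dentate granule neurons, was at 11.28 and 10.36 on these arrays and between 11.23 and 12.43 on the other 6. Dsp, another granule neuron gene, was at 10.95 and 9.81 there and between 11.36 and 12.98 elsewhere. Averaged over the 6 markers, these arrays were at -1.13 and -1.33 relative to the B6 mean, and the other 6 arrays between -0.36 and 0.32. A list of 3 dorsal hippocampus markers (Lct, Spink8 and Wfs1), chosen after the receptor values were seen, averaged -2.18 and -2.20 there and between -0.58 and 0.47 elsewhere. Wfs1, which both lists hold, was at 14.48 and 14.94 on these arrays, against 14.20 to 14.52 in B6 and 15.67 and 15.07 on the other 2 BTBR arrays, so that it was not below B6 there but lowest within BTBR. The summed signal of the 6 principal neuron markers, Wfs1 included, was between 15.66 and 16.06 in B6 and between 15.17 and 16.42 in BTBR.

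Markers of tissue next to the hippocampus were high on the same BTBR arrays. All 7 striatal markers were highest on BTBR replicate 2, where Drd1a and Drd2 were at 12.87 and 12.69, and B6 replicate 2 was next in both (11.44 and 10.64). All 6 thalamic markers were highest on BTBR replicate 1, with Prkcd at 15.12 and Slitrk6 at 12.18. Of the 7 choroid plexus markers on the array, 6 were above every B6 array on BTBR replicate 1 and all 7 on replicate 2. The summed signal of the striatal list ranged from 14.63 to 17.05 in B6 and from 14.27 to 18.35 in BTBR, and that of the thalamic list from 12.85 to 13.54 and from 13.29 to 16.14. The part of these markers in the Htr1a values was not tested. Without BTBR replicates 1 and 2 the Htr1a difference was 0.44, of the opposite sign, with an adjusted p of 0.108 in limma.

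**Figure D3:**
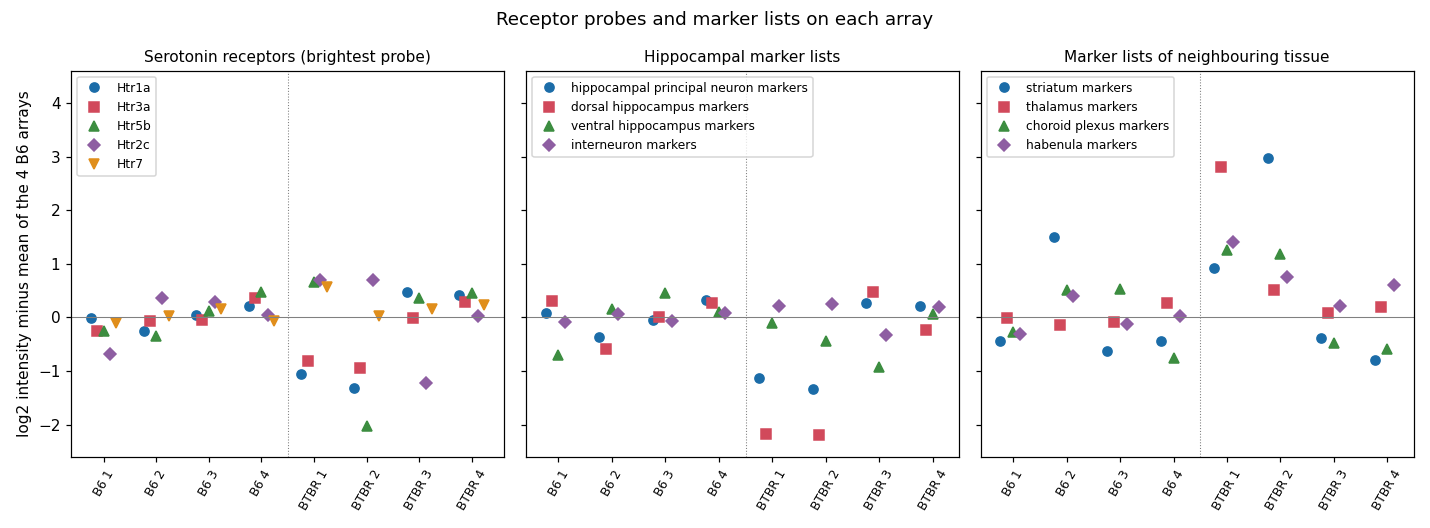
Log2 intensity minus the mean of the 4 B6 arrays (vertical axis) on each of the 8 arrays (horizontal axis), for the brightest probe of 5 receptors (left), and averaged over marker lists of the hippocampus (middle) and of neighboring tissue (right). BTBR replicates 1 and 2 are low in Htr1a, Htr3a and principal neuron markers and high in Htr2c and choroid plexus markers, and BTBR replicate 3 is lowest in Htr2c.

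Htr5b, a Gi/o-coupled receptor of rodents that is a pseudogene in humans, was at 10.15, 10.06, 10.52 and 10.88 in B6 and at 11.06, 8.38, 10.76 and 10.85 in BTBR. BTBR replicate 2 was far below the other 7 arrays, and BTBR replicate 1 was the highest of all. The means were 10.40 ± 0.37 and 10.26 ± 1.26, a difference of -0.14 (SE 0.54) with an adjusted p of 0.926 in limma and an interval from 0.386-fold to 2.13-fold. The BTBR SD was larger than that of 99.7% of all probes. Without BTBR replicate 2 the difference was 0.49 (adjusted p = 0.245). Htr5b and Htr1a thus shared a low value on BTBR replicate 2 and parted on BTBR replicate 1. On this array the habenular markers Gpr151 and Pou4f1 were at 9.97 and 8.71, against at most 8.92 and 8.77 elsewhere. Tac2, a habenular gene named after its values were seen, was at 13.69 there and at most 12.33 elsewhere. On BTBR replicate 2, the array lowest in Htr5b, Pou4f1 (8.77) and Tac2 (12.33) were also above every B6 array, and Gpr151 (7.69) was below every B6 array. Gpr151 was not well above background on 4 of the 8 arrays. The habenula is a known site of Htr5b, and its part in the Htr5b values was not tested.

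Htr1b and Htr5a, the other inhibitory receptors, were not above background on every array. Htr1b, a presynaptic receptor on axon terminals, was above background on 3 arrays of each strain. It was at 7.62, 8.34, 7.97 and 8.02 in B6 and at 7.92, 8.32, 7.84 and 8.14 in BTBR, with every BTBR array inside the range of B6. The difference was 0.07 (SE 0.16, adjusted p = 0.87 in limma). Its highest values came from B6 replicate 2 and BTBR replicate 2, the arrays with the highest Drd1a and Drd2, and striatal neurons are a known source of Htr1b RNA. A part of striatal tissue in these values was not tested. Htr5a was above background on 3 B6 and 4 BTBR arrays. It was at 8.33, 8.41, 8.44 and 8.47 in B6 and at 8.30, 8.52, 8.43 and 8.39 in BTBR. These ranges were nearly the same, and the difference of -0.01 (SE 0.07, adjusted p = 0.98) had an interval from 0.896-fold to 1.11-fold.

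Among the Gq-coupled receptors, Htr2c was read by 2 probes that passed the filter. The brighter probe A_52_P487454 was at 10.08, 11.13, 11.04 and 10.80 in B6 and at 11.46, 11.45, 9.54 and 10.79 in BTBR. BTBR replicates 1 and 2 were above all B6 arrays and BTBR replicate 3 was below all of them. The means were 10.76 ± 0.48 and 10.81 ± 0.90, and the difference of 0.05 (SE 0.42) had an adjusted p of 0.968 in limma and an interval from 0.532-fold to 2.02-fold. The within-slide differences were 0.85 and -0.75, with an adjusted p of 0.49 for their change. The 5′ probe A_51_P370810 was above background on 3 arrays of each strain and was at 8.09, 8.44, 8.36 and 8.45 in B6 and at 8.62, 8.57, 7.99 and 8.49 in BTBR. Its lowest arrays, BTBR replicate 3 and B6 replicate 1, were also the lowest of the brighter probe, and its highest, BTBR replicates 1 and 2, were also the highest. Its difference was 0.09 (SE 0.15, adjusted p = 0.822). The third Htr2c probe, A_52_P164255, had no array on which it was well above background, with values between 7.40 and 7.87.

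The choroid plexus gene Ttr, which encodes transthyretin, was also highest on BTBR replicates 1 and 2, at 13.49 and 13.46, and between 10.42 and 12.71 on the other 6 arrays. Kl, another choroid plexus gene, was at 13.70 and 13.65 there and between 12.35 and 13.19 elsewhere. The summed choroid plexus signal ranged from 13.89 to 15.19 in B6 and from 13.95 to 15.95 in BTBR. The low end of Htr2c went with other values: B6 replicate 1 and BTBR replicate 3 had the fewest probes above background, and they were lowest in the average of 3 ventral hippocampus markers (Dcn, Trhr and Nr2f2), at -0.71 and -0.92 relative to the B6 mean against -0.44 to 0.45 on the other arrays. These markers were chosen after the receptor values were seen. The part of either tissue in the Htr2c values was not tested. Without BTBR replicates 1 and 2 the difference of the brighter probe was -0.60 and that of the 5′ probe was -0.09, both of the opposite sign and not called.

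Htr2a, the Gq-coupled receptor on which classical hallucinogens act, was near the floor, above background on 2 B6 and 3 BTBR arrays. It was at 7.72, 7.88, 7.97 and 7.98 in B6 and at 7.88, 8.04, 7.91 and 7.96 in BTBR. The highest BTBR array was just above the highest B6 array, and the difference was 0.06 (SE 0.08, adjusted p = 0.738). At this signal the probe sets a narrow interval, from 0.927-fold to 1.18-fold, of a value near background. With the processed signal of the scanner software, scaled to the 75th percentile of each array, the difference was 0.57 (adjusted p = 0.35), outside that interval, and with an offset of 16 alone it was 0.07.

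Htr3a, the subunit that can form the serotonin-gated cation channel by itself, was at 9.58, 9.78, 9.80 and 10.21 in B6 and at 9.03, 8.90, 9.83 and 10.12 in BTBR. BTBR replicates 1 and 2 were below all B6 arrays, as they were for Htr1a, and the other 2 BTBR arrays lay within B6. The means were 9.84 ± 0.27 and 9.47 ± 0.60. The difference of -0.37 (SE 0.27) had an adjusted p of 0.546 in limma, an exact permutation p of 0.314 and an interval from 0.502-fold to 1.19-fold. Within slides the difference was -0.71 and -0.03 (adjusted p = 0.473 for their change). Without BTBR replicates 1 and 2 it was 0.13, with an adjusted p of 0.78.

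The interneuron list, 13 genes that include some known to be expressed together with Htr3a, was mixed on those arrays. On BTBR replicate 1, 5 of its genes were above and 4 below every B6 array, and on replicate 2, 6 were above and 3 below. The list averaged 0.21 and 0.25 relative to the B6 mean there, and between -0.32 and 0.20 on the other 6 arrays. Without Calb2, which was at 13.36 on BTBR replicate 1 and 9.06 to 10.99 elsewhere, the averages were -0.01 and 0.31. Sst was below every B6 array on all 4 BTBR arrays, at 16.05, 16.04, 15.39 and 16.02 against at least 16.15. It was not called (adjusted p = 0.211 in limma), and the strains were as separate for 14.2% of all probes. Ndnf was below every B6 array on BTBR replicates 1, 2 and 3, at 8.81, 8.48 and 8.75 against at least 9.06. Gad1 and Gad2, which make GABA, were at 15.37 and 14.04 on BTBR replicate 1 and at 16.05 and 14.95 on replicate 2, above the highest B6 values of 15.32 and 13.98. Vip and Cnr1 mark interneurons that also carry Htr3a and, like Calb2, Sst and Ndnf, were picked here after their values were seen. Vip was at 10.24 and 9.91 and Cnr1 at 10.75 and 11.64 on these arrays, against 10.08 to 10.56 and 11.26 to 11.91 in B6. Adarb2 and Reln, picked in the same way, were not below B6 there. Adarb2 was at 11.81 and 11.20 and Reln at 12.73 and 13.07, against 10.93 to 11.81 and 12.53 to 12.81 in B6. The summed interneuron signal ranged from 17.77 to 18.04 in B6 and from 17.52 to 18.53 in BTBR.

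Among the Gs-coupled receptors, Htr7 had the smallest p of the 10 probes. It was at 8.66, 8.80, 8.92 and 8.71 in B6 and at 9.33, 8.80, 8.93 and 9.01 in BTBR. BTBR replicate 1 was the highest, replicates 3 and 4 were just above the highest B6 array, and replicate 2 lay within B6. The means were 8.77 ± 0.11 and 9.02 ± 0.23. The difference of 0.25 (SE 0.12) had an unadjusted p of 0.0624 and an adjusted p of 0.305 in limma, an exact permutation p of 0.0571, and an interval from 0.989-fold to 1.42-fold. The difference was 0.34 within slide 1 and 0.16 within slide 2. It kept its sign under all 23 alternatives tried, between 0.14 and 0.52, and passed the threshold under 0 of them. BTBR replicate 1 was also the array with the highest thalamic markers, and the thalamus is a known site of Htr7. BTBR replicates 3 and 4 averaged 0.09 and 0.20 in these markers, against -0.15 to 0.27 on the B6 arrays. The part of thalamic tissue in the Htr7 values was not tested. Without BTBR replicate 1 the Htr7 difference was 0.14 (adjusted p = 0.513), and without BTBR replicates 1 and 2 it was 0.20 (adjusted p = 0.328).

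Htr6, a Gs-coupled receptor of forebrain neurons, was at 8.20, 8.65, 8.45 and 8.59 in B6 and at 8.29, 8.56, 8.26 and 8.56 in BTBR. All BTBR arrays lay within the range of B6. The difference was -0.05 (SE 0.12, adjusted p = 0.863 in limma), with an interval from 0.80-fold to 1.16-fold, and B6 replicate 1 was the only array on which the probe was not above background. Htr4, the third Gs-coupled receptor, had 2 probes, neither of which was well above background on any of the 8 arrays. Probe A_52_P581594 was at 7.71, 7.86, 7.85 and 7.86 in B6 and at 7.58, 7.77, 7.87 and 7.92 in BTBR, and the values of the other probe were between 7.59 and 7.83. These values have no order above background, and no difference was tested.

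The 4 remaining serotonin receptors of the array were read from a separate list. Htr1d, an inhibitory receptor, was above background on 6 arrays, at 7.92, 8.18, 8.07 and 8.10 in B6 and 8.18, 8.58, 7.99 and 8.12 in BTBR. The arrays overlapped, and the difference was 0.15 (SE 0.12, adjusted p = 0.598). Htr1f was above background on 4 arrays and did not pass the filter, and neither did Htr2b (2 probes) and Htr3b, the latter above background on 0 arrays.

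The genes that make, move and degrade serotonin and those that carry the receptor signal were read at the brightest probe of each gene. Of 78 listed genes, 77 were on the array by name and 70 were tested. Limma called 1 of them, as higher in BTBR, where 7.82% of 18398 gene names were called at their brightest probe. The differences of the 70 genes had a median of 0.01, the same as over all gene names, with 37 higher and 33 lower in BTBR.

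In the list of serotonin synthesis, transport and breakdown, 0 of 14 tested genes were called, 6 were higher and 8 lower, and the median difference was -0.01. With BTBR replicates 1 and 2 left out, 2 were higher and 12 lower, with a median of -0.07. Some members of the lists were picked by role for description here after their values were seen. Tph2, the brain enzyme that starts serotonin synthesis, is made in raphe neurons, and its probe was above background on 3 B6 arrays and 1 BTBR array. It thus entered the test through B6 alone, the strain with the higher mean, and its difference was -0.20 (SE 0.08, adjusted p = 0.223). Slc6a4, the serotonin transporter, was above background on 2 arrays and did not pass the filter. Maoa and Maob, which degrade serotonin and other amines, differed by -0.05 (SE 0.08, adjusted p = 0.81) and -0.09 (SE 0.19, adjusted p = 0.857). With BTBR replicates 1 and 2 left out, Maob differed by -0.42 and was called (adjusted p = 0.0442 in limma). Slc18a2, the vesicular monoamine transporter, differed by 0.02 (SE 0.10, adjusted p = 0.937).

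Of the Gi/o list, which holds G protein subunits, Girk channels and Rgs proteins, 0 of 11 tested genes were called and the median was -0.01. Kcnj3 and Kcnj6, the Girk channel subunits that Htr1a opens, differed by -0.25 each (adjusted p = 0.586 and 0.622). They differed by -0.58 and -0.57 within slide 1, the slide on which Htr1a was low in BTBR, and by 0.09 and 0.07 within slide 2. Kcnj9, the third Girk subunit tested, differed by 0.29 within slide 1 and 0.09 within slide 2, with its highest value, 15.72, on BTBR replicate 1. Without BTBR replicates 1 and 2 the differences of Kcnj3, Kcnj6 and Kcnj9 were 0.05, 0.05 and 0.04. Of the Gq list 0 of 10 genes were called, with a median of -0.01. Plcb2, a phospholipase C, was the nearest to the threshold, at 8.38 to 8.56 in B6 and 8.12 to 8.37 in BTBR (difference -0.29, SE 0.08, adjusted p = 0.0565). Without BTBR replicate 2 it was called, at -0.34 (adjusted p = 0.0226). Prkca, a protein kinase C, differed by 0.46 (SE 0.21, adjusted p = 0.29) over all arrays. It was called with BTBR replicates 1 and 2 left out (0.85, adjusted p = 0.0109) and with the 3 arrays highest in striatal markers left out (0.81, adjusted p = 0.0294). Of the 15 receptor partners and regulators 0 were called, with a median of -0.04. Cops5 had the smallest p of that list, with a difference of -0.22 (SE 0.06, adjusted p = 0.0692 in limma) and arrays that did not overlap. S100a10, which binds Htr1b and Htr4, had the largest difference of that list, at -0.71 (SE 0.37, adjusted p = 0.357). Its value on BTBR replicate 3 was 10.02, against 11.51 to 12.32 on the other arrays.

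In the Gs list, 15 of 19 tested genes were higher and 4 lower in BTBR, with a median of 0.18, and 1 was called. This was Prkar1a, a regulatory subunit of protein kinase A, which holds the catalytic subunits inactive until cyclic AMP binds. It was at 12.13, 12.24, 12.19 and 12.25 in B6 and at 14.02, 13.84, 13.77 and 13.93 in BTBR. The strains were wholly separate and the spread within each was small (SD 0.05 and 0.11). The difference was 1.69 (SE 0.07), with an adjusted p of 1.1e-06 in limma and an exact permutation p of 0.0286, the smallest possible. It was 1.74 within slide 1 and 1.63 within slide 2. Prkar1a was read by 1 probe, A_51_P294095 at chr11:109530521-109530580, so that no second probe checks it, and whether the strains differ in sequence under the probe was not analysed here. Neither of the catalytic subunits in the list was called. Prkaca differed by 0.23 (SE 0.07, adjusted p = 0.118) and its arrays did not overlap. Adcy7, an adenylyl cyclase, was at 9.54 to 9.85 in B6 and 9.84 to 10.52 in BTBR (difference 0.54, SE 0.16, adjusted p = 0.093). With slide as a block the same difference was called (adjusted p = 0.0183), as was 0.66 without BTBR replicate 3 (adjusted p = 0.0334). Without BTBR replicates 1 and 2 its difference was 0.24 (adjusted p = 0.294), and 14 genes of the list were higher and 5 lower, with a median of 0.07.

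**Figure D4:**
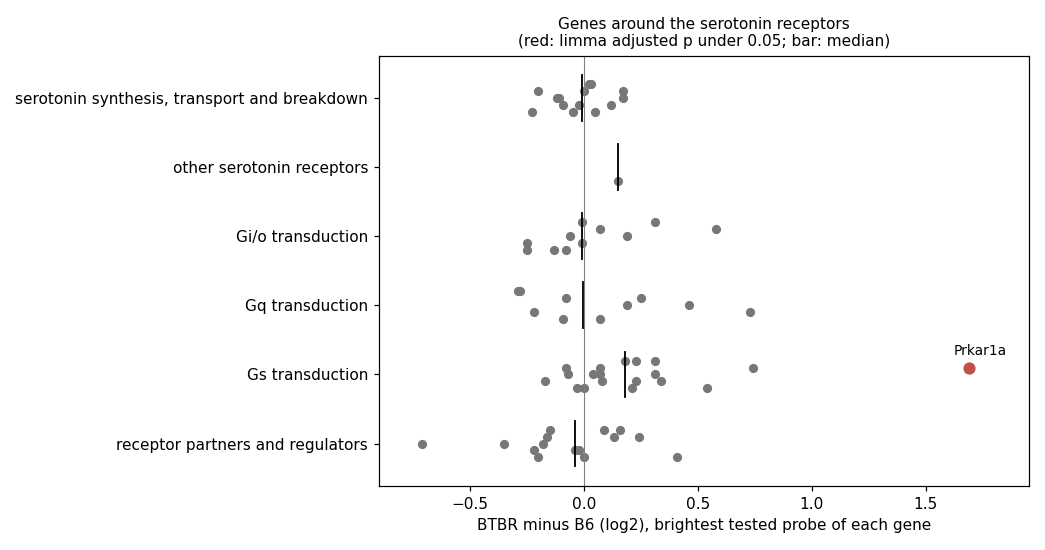
Difference between BTBR and B6 (horizontal axis, log2) of each tested gene in 6 lists around the serotonin receptors, at its brightest probe, with the median of each list as a bar. Prkar1a, at 1.69, is the 1 gene called of 70, and the medians of the 5 lists with more than 1 tested gene lie between -0.04 and 0.18.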

How the data were processed

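Spot intensity values were used as deposited by the authors, who scanned Cy3 arrays (spots read by Agilent Feature Extraction 10.7.3.1, according to the headers). Names, positions on mm9 and flags come from those files. The log2 matrix deposited by the authors (background subtracted, quantile normalized, median over replicate spots) served as an alternative.

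Median local background was subtracted from mean intensity (minimum 0.5), an offset of 50 was added, and quantile normalization was applied to log2 values, with the median over replicate spots. Control spots and 154 probes with outlier flags were left out. The 8 arrays are 8 mice, and their number limits precision. R 4.3.3 with limma 3.58.1 fitted strain alone, with Benjamini-Hochberg adjustment over 27981 probes. The fit was tested on simulated data. The rank product of the methods used 100 permutations. The alternatives covered signal, background, offset, scaling, filter, blocks, limma options and arrays left out.

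All 10 symbols were found in the RefSeq gene table (GRCm38.p6), used for names only. Values are given in every array for the brightest probe of each receptor, and for genes of other lists if called. From marker lists the first 2 genes are named, others after their values were seen, and 1 list member is not reported here. Members and lists were chosen with earlier results of these data known.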

Additional observations from a re-analysis of the deposited data

Results flagged for a closer look

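The Htr5b probe on BTBR replicate 2, at 8.38, stood apart from the other 3 BTBR arrays, of which the lowest was at 10.76. Its gap to the nearest array was 0.889 of the range of the group, which ran from 8.38 to 11.06. The 10 tested receptor probes gave 20 groups of 4 arrays, and 1 of them held such a value, which is what chance gives at about 1 in 20. Htr5b on the other BTBR array that was low in Htr1a, replicate 1, was the highest of the group.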

How the results depend on the processing

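The number of receptor probes called was 0 under all 24 settings, and none of 218 receptor differences under an alternative was called, while 22 changed sign. Htr7 never changed sign under its 23 alternatives, nor did Htr2a under the 17 in which it was tested. Htr2a, above background on 2 B6 and 3 BTBR arrays, entered the main test through BTBR alone, the strain with its higher mean. With the processed signal Htr5a turned to 0.17, and other differences grew, to 0.57 (Htr2a), 0.52 (Htr7), -0.61 (Htr1a), -0.51 (Htr3a), -0.34 (Htr5b), -0.10 (Htr6), 0.17 (Htr1b) and 0.21 (5′ Htr2c probe), none of them called. The brighter Htr2c probe did not grow, at 0.03. Leaving out 1 array in turn gave ranges of -0.66 to -0.06 (Htr1a), -0.05 to 0.19 (Htr1b), 0.01 to 0.09 (Htr2a, in the 5 of these fits in which it passed the filter), -0.18 to 0.47 and 0.01 to 0.23 (the brighter and the 5′ Htr2c probe), -0.59 to -0.18 (Htr3a), -0.04 to 0.03 (Htr5a), -0.40 to 0.49 (Htr5b) and -0.15 to 0.00 (Htr6). The sign turned without B6 replicate 1 for Htr1b (-0.05) and the brighter Htr2c probe (-0.18), without B6 replicate 4 for Htr5b (0.02), without BTBR replicate 1 for that Htr2c probe (-0.16), and without BTBR replicate 2 for Htr1b (-0.02), that Htr2c probe (-0.16) and Htr5b (0.49). Htr5a and Htr6, near 0 throughout, turned to values between 0.00 and 0.03 without B6 replicate 2, 3 or 4 or BTBR replicate 1 or 4. Other sets of arrays left out were chosen after seeing the data. Without BTBR replicates 1 and 2 the values were 0.44 (Htr1a), -0.09 and -0.60 (Htr2c), 0.13 (Htr3a) and 0.40 (Htr5b). Without the 3 arrays highest in striatal markers they were 0.36 (Htr1a), -0.47 (brighter Htr2c probe), 0.11 (Htr3a) and 0.29 (Htr5b). Without the 2 arrays with the fewest probes above background no sign turned, and they were -0.67 (Htr1a), 0.25 (brighter Htr2c probe), -0.59 (Htr3a) and -0.40 (Htr5b). Why signs turned under the other sets was not tested.

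Genes called in the 6 lists around the receptors numbered 2 with median centring, the deposited matrix or limma's trend and robust options (Cops5 added), 2 with slide as a block (Adcy7 added), 2 without the 3 striatal arrays (Prkca added), and 3 without BTBR replicates 1 and 2 (Prkca and Maob added). With 1 array left out they numbered 1 to 3, with 2 without BTBR replicate 2 (Plcb2 added) and 3 without BTBR replicate 3 (Adcy7 and Arrb2 added). Prkar1a was called under all 22 alternatives (1.63 to 1.72). Over all probes tested, the settings named here called from 1207 of 25272 (without the 3 striatal arrays) to 2329 of 27981 (slide as a block). They tested 68 to 70 listed genes, so that 1 to 3 calls do not set these lists apart.

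With the replicate number as a block, limma called 0 receptor probes and 1 listed gene, as without it, and 1650 probes in all. Same-numbered arrays correlated at -0.14, 0.51, -0.10 and 0.39, and replicates 2 and 4 of BTBR correlated best with their own number. So few correlations do not settle whether the numbers pair the samples. Signal over background limits Htr1b, Htr2a, Htr5a, Htr6 and the 5′ Htr2c probe, which were not above background on every array.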

Other observations

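Of the genes in the marker lists, limma called Gfap and Cx3cr1, where 7.82% of all gene names were called at their brightest probe. Against that share, 0 or 1 call in a list of this size does not set it apart. Gfap, the intermediate filament of astrocytes, was at 13.73, 13.54, 14.02 and 14.03 in B6 and at 12.24, 12.28, 12.88 and 12.70 in BTBR, so that it fell by 1.30 on the log2 scale, and it was 1 of 5 astrocyte markers called. Cx3cr1, the fractalkine receptor of microglia, was at 12.05, 12.06, 11.96 and 12.19 in B6 and at 13.31, 13.64, 13.49 and 13.46 in BTBR. It rose by 1.41 and was 1 of 5 microglial markers called. The other first-named markers were not called: Aqp4 differed by -0.26 and Gja1 by -0.06 in astrocytes, and Csf1r by -0.01 in microglia. In the oligodendrocyte list 0 of 5 genes were called (Mbp 0.09, Mog 0.18), in the endothelial list 0 of 4 (Cldn5 -0.11, Flt1 0.16), and in the neocortex and subiculum list 0 of 6. In this last list 5 genes were higher and 1, Fezf2 (-0.59), was lower in BTBR, with a median of 0.28. The striatal, thalamic, choroid plexus, habenular, interneuron and principal neuron lists held 0 genes called by limma each, of 7, 6, 7, 2, 13 and 6 tested, and those of dorsal and ventral hippocampus, chosen after the receptor values were seen, 0 of 3 each. The rank product, which does not weigh a difference against the spread between mice, called 797 of 18398 gene names. In the principal neuron, thalamic, striatal and habenular lists it called 3, 2, 2 and 1 genes. It called 3 dorsal and 1 ventral hippocampus markers, 1 gene each of the neocortex and subiculum, astrocyte, oligodendrocyte and microglial lists, and 0 of the other lists. All 5 oligodendrocyte markers were above every B6 array on BTBR replicates 1 and 2, the arrays low in Htr1a and Htr3a.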
